A study of Mus musculus with 12 samples.

Results

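This account compares mouse embryonic stem cells (ESC) that carried a Set knockdown, line KD2, with ESC that carried a scrambled control, over every annotated gene of a gene expression array. The labels name 4 arrays for it, 2 of KD2 and 2 of Scrambled, out of 12 arrays in the series. The cells were R1 ESC, an established mouse line, profiled on Affymetrix arrays after being kept on gelatin in 15% serum with 1000 U/ml of leukemia inhibitory factor (LIF). The series also holds a knockdown line KD1, and every line after 4 days of differentiation in 1 µM retinoic acid (RA) with 10% serum and no LIF, in 2 arrays each. The labels speak of a scrambled control infection and of knockdown and control clones, and KD2 and Scrambled are 1 line each. The knockdown and the line therefore cannot be told apart, and the p-values cover array-to-array variation within each line only.

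SET binds histones as a chaperone, belongs to the complex that shields histone tails from acetylation, and inhibits the phosphatase PP2A. ESC in serum and LIF keep a network of pluripotency factors such as Oct4 (Pou5f1) and Nanog. They hold germline genes largely silent by promoter methylation and Polycomb-related repressors, and a minority of the cells drifts towards primitive endoderm.

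The array labelled ESC KD2 replicate 2 resembled the differentiated state. Its mean Pearson correlation with the other ESC-labelled arrays was 0.952, and with the RA-labelled arrays 0.986. Its best match was RA KD2 replicate 1, at 0.998. The array labelled RA KD2 replicate 2 resembled ESC in turn, with 0.986 against ESC-labelled and 0.952 against RA-labelled arrays. ESC KD2 replicate 1 behaved as an ESC array, at 0.984 with its own labelled state, but its 0.959 with RA-labelled arrays was above the 0.947 to 0.952 of the scrambled and KD1 ESC arrays. No array was moved to another group. Each result is given as labelled, from a fit of all 12 arrays, and then with KD2 replicate 1 alone, from a fit of 10 arrays without the KD2 replicate 2 array of either state.

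**Figure D1:**
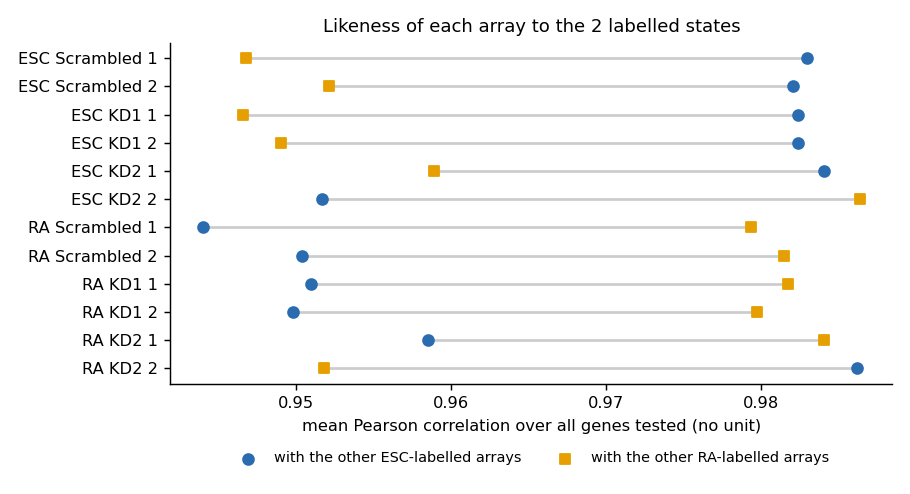
Mean Pearson correlation of each array (1 line per array) with the other ESC-labelled arrays (blue circles) and the other RA-labelled arrays (orange squares), over the 19938 genes tested, with no unit. The arrays labelled ESC KD2 2 and RA KD2 2 are the ones whose circle and square change places.

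Naive stem cell, extraembryonic endoderm and fibroblast feeder markers moved with this displacement. Levels are log2 units of the deposited values throughout. The mean level of 8 naive stem cell markers was 12.06 and 12.20 in the scrambled ESC arrays, 11.91 in KD2 replicate 1 and 9.96 for ESC KD2 replicate 2 as labelled. Scrambled RA arrays read 8.67 and 9.45 by the same markers. The mean of 7 extraembryonic endoderm markers was 7.56 and 7.47 in the scrambled ESC arrays, 8.59 in KD2 replicate 1 and 10.57 for the replicate 2 array labelled ESC KD2. KD1 in ESC read 8.22 and 8.13. Of the endoderm markers, Sox17 stayed under 7.22, the median of all values, in both scrambled ESC arrays and in KD2 replicate 1. The 7 fibroblast feeder markers averaged 6.90 and 6.87 in scrambled ESC, 7.20 in KD2 replicate 1 and 8.01 for the replicate 2 array labelled ESC KD2, with Postn, Dcn and Lum under 7.22 in the first 3. Trophoblast markers did not separate in this way. They averaged 8.02 and 8.35 in scrambled ESC and 8.65 in KD2 replicate 1, with Elf5 under 7.22. The replicate 2 array labelled ESC KD2 averaged 8.53, and scrambled RA arrays 8.29 and 8.49. Neuron markers averaged 7.83 and 7.80 in scrambled ESC, 8.09 in KD2 replicate 1 and 7.42 for that replicate 2 array. The 3 measured mesoderm markers averaged 6.70 and 6.73, 7.09 and 6.67 in the same order. The part of other cell types in the results was not tested. In a bulk sample, more cells of a type and more RNA per cell cannot be told apart.

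The targeted gene was checked first. Its bright probe set 10470893, which is shared with BC085271, read 12.93 and 12.71 log2 units in scrambled ESC, 12.15 in KD2 replicate 1 and 11.87 for the replicate 2 array labelled ESC KD2. Both KD2 arrays lay below both scrambled ESC arrays. Scrambled RA arrays read 12.27 and 12.29, so this signal was also lower in the state that the replicate 2 array resembled. As labelled, the signal stood at 57.1% of scrambled (log2 -0.81, SE 0.14, limma adjusted p = 0.074 over all annotated probe sets) and was not called. It fell to 62.9% with KD2 replicate 1 alone (log2 -0.67, SE 0.12, limma adjusted p = 0.0374). The other bright shared probe set, 10587486, gave -0.90 (SE 0.17, limma adjusted p = 0.122) as labelled and -0.74 (SE 0.12, limma adjusted p = 0.0324) with replicate 1 alone. The dimmer probe sets 10470905 and 10470907, annotated to Set alone, were not called in either fit. As labelled they stood at -0.88 (SE 0.50, limma adjusted p = 0.542) and -0.44 (SE 0.35, limma adjusted p = 0.611). In the fit of replicate 1 alone they stood at -0.06 (SE 0.20) and 0.02 (SE 0.22). The replicate 2 array labelled ESC KD2 read 10470905 at 6.91. Scrambled ESC arrays read it at 8.82 and 8.39, and scrambled RA arrays at 6.68 and 6.45. Averaged over ESC and RA as labelled, KD2 minus scrambled stays the same if the displaced KD2 arrays change places. By that average 10470893 stood at -0.62 (SE 0.10, limma adjusted p = 0.0467) and 10587486 at -0.65 (SE 0.12, limma adjusted p = 0.0977). Probe sets 10470905 and 10470907 stood at -0.05 (SE 0.35) and 0.11 (SE 0.25). The parts of knockdown and state in the ESC values as labelled were not tested.

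As labelled, most of the genes that separated KD2 from scrambled ESC were lower in KD2, and 8 of the 17 were X-linked, Y-linked or in the germline list. By limma with Benjamini-Hochberg adjustment over 19938 genes, 15 genes fell and 2 rose at an adjusted p below 0.05, which is 0.0853% of the genes tested. The lowered genes make up 0.0752% and the raised ones 0.01%. At an unadjusted p below 0.05 there were 2057 genes. Of the 15 lowered genes, 6 lie on chromosome X, which holds 3.71% of the genes tested. Another 3 lie on chromosome 5, which holds 5.72%, and 1 on chromosome Y, which holds 0.0451%.

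Dnajc5g, which encodes a J-domain cochaperone expressed mainly in testis, read 9.14 and 9.13 log2 units in scrambled ESC, 6.02 in KD2 replicate 1 and 5.42 for the replicate 2 array labelled ESC KD2. Both KD2 arrays lay far below the scrambled pair, and KD1 lay between them at 6.84 and 7.13. As labelled Dnajc5g fell by 3.42 on the log2 scale (SE 0.35, limma adjusted p = 0.0179), and with replicate 1 alone by 3.12 (SE 0.19, limma adjusted p = 0.000734), to 11.5% of scrambled. Efhc2, an X-linked gene for an EF-hand protein related to ciliary proteins, read 9.04 and 9.31 in scrambled ESC, then 6.45 and 5.87 in KD2 replicates 1 and 2. It fell by 3.01 as labelled (SE 0.27, limma adjusted p = 0.00712) and by 2.72 with replicate 1 alone (SE 0.18). Scrambled RA arrays were intermediate, at 7.53 and 7.81.

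Kdm5d, a Y-linked demethylase of methylated lysine on histone H3, read 7.53 and 7.48 in scrambled ESC and 7.59 and 7.70 in scrambled RA arrays, against 5.51 and 5.67 in the arrays labelled ESC KD2 and 5.85 and 5.65 in those labelled RA KD2. No KD2 array of either state came within 1 log2 unit of a scrambled array. The fall was 1.91 as labelled (SE 0.12, limma adjusted p = 0.00148) and 1.99 with replicate 1 alone (SE 0.14, limma adjusted p = 0.000734). KD1 read 5.64 and 5.74, like KD2. Zfy1, a Y-linked zinc finger gene of spermatogenesis, read 8.50 and 9.32 in scrambled ESC, 5.55 in KD2 replicate 1 and 4.73 for the replicate 2 array labelled ESC KD2. As labelled it stood at -3.77 (SE 0.57, limma adjusted p = 0.0865) and was not called, while with replicate 1 alone it fell by 3.36 (SE 0.34, limma adjusted p = 0.00677). Of 8 measured Y-linked genes, 1 fell as labelled, against 0.0752% of all genes. With replicate 1 alone the list median was -0.43, against 0.01 over all genes. Eif2s3y, a translation factor gene and a member outside the naming rule chosen after its values were seen, read 10.78 and 10.62 in scrambled ESC and 10.52 in KD2 replicate 1.

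Ct55, an X-linked cancer and testis antigen, read 8.09 and 8.22 in scrambled ESC, 6.39 and 6.005 in KD2, and 6.53 and 6.50 in KD1. It fell by 1.96 as labelled (SE 0.13, limma adjusted p = 0.00187). Rhox1 and Rhox13 are X-linked homeobox genes of the reproductive Rhox cluster. Rhox13 read 8.23 and 8.78 in scrambled ESC and 6.62 and 6.57 in KD2, a fall of 1.91 (SE 0.24, limma adjusted p = 0.0407), while KD1 overlapped the scrambled range at 7.79 and 8.24. Rhox1 read 9.50 and 9.66 in scrambled ESC and 8.08 and 8.12 in KD2, a fall of 1.48 (SE 0.18, limma adjusted p = 0.0386). These are 2 of 6 Rhox genes measured, against 0.0752% of all genes lowered as labelled. The list median was -0.17 as labelled and -0.23 with replicate 1 alone. Tcp11x2, an X-linked testis gene of the Tcp11 family, read 7.99 and 8.59 in scrambled ESC and 6.22 and 5.81 in KD2 (log2 -2.28, SE 0.28, limma adjusted p = 0.0386).

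**Figure D2:**
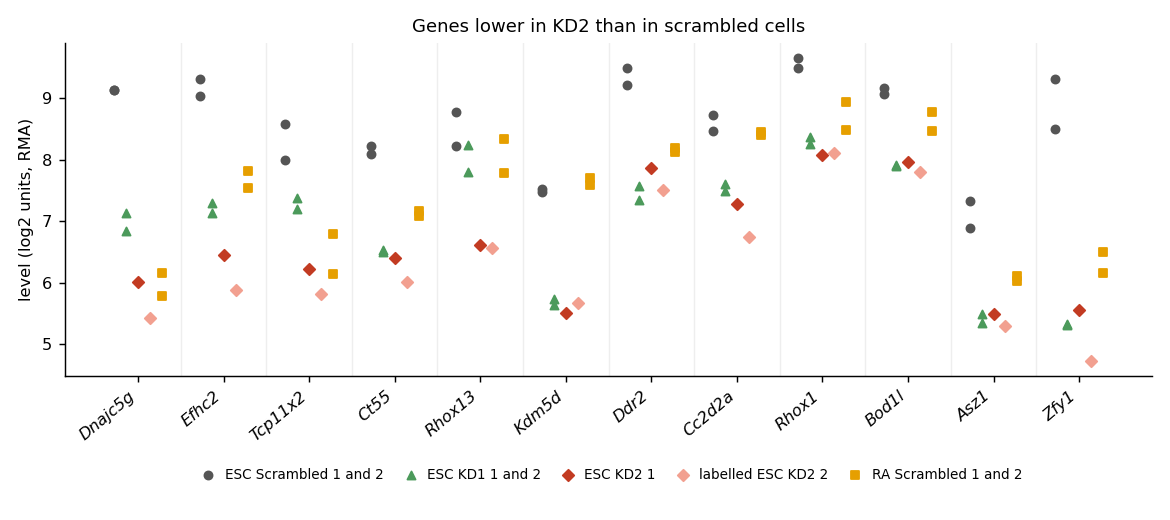
Levels (log2 units, RMA) of the 10 genes named as lower in KD2 as labelled, and of Asz1 and Zfy1, in single arrays: scrambled ESC (grey circles), KD1 ESC (green triangles), ESC KD2 replicate 1 (red diamonds), the array labelled ESC KD2 replicate 2 (pale diamonds) and scrambled RA (orange squares). Both diamonds lie under both grey circles for every gene shown, which the naming rule required for the 10 genes.

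The germline list holds 23 measured genes known for silencing by promoter DNA methylation outside germ cells. As labelled 1 fell, Asz1, a germ cell protein of the piRNA pathway, which read 6.89 and 7.32 in scrambled ESC, 5.49 and 5.30 in KD2, and 5.33 and 5.49 in KD1 (log2 -1.71, SE 0.15, limma adjusted p = 0.00706). With replicate 1 alone 5 of the 23 fell and 0 rose, against 0.271% of all genes lower and 0.717% higher in that fit. The list median was -0.55, against 0.01 over all genes, and 6 of 23 members stood above 0. The list was also lower after differentiation of scrambled cells, with a median RA minus ESC difference of -0.70 against -0.04 over all genes. For KD2 minus scrambled averaged over ESC and RA, its median was -0.11 as labelled and -0.09 with replicate 1 alone. Rpl10l, the testis form of a large ribosomal subunit protein, read 11.12 and 11.26 in scrambled ESC and 9.77 in KD2 replicate 1 (log2 -1.42, SE 0.16, limma adjusted p = 0.00779). Slc25a31, a testis ADP/ATP carrier, read 7.87 and 8.36 against 6.86 (log2 -1.26, SE 0.23, limma adjusted p = 0.0468). Tex14, needed for the bridges between germ cells, read 9.03 and 9.34 against 7.95 (log2 -1.24, SE 0.19, limma adjusted p = 0.0229). The fifth was Tex11, an X-linked meiosis gene named outside the rule after its values were seen (log2 -0.89, SE 0.15, limma adjusted p = 0.031). Dazl, a germ cell RNA-binding protein also named after its values were seen, had the largest difference of the list but its scrambled arrays were far apart, 8.99 and 10.22, against 7.89 (log2 -1.71, SE 0.53, limma adjusted p = 0.226). The array labelled ESC KD2 replicate 2 read Slc25a31 at 7.96, inside the scrambled range.

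Promoters of the 4 germline list members that fell with replicate 1 alone and have a RefSeq window, and of the X-linked testis gene Ct55, which is not on that list, are shown because the E-box CACGTG, the site bound by the MGA and MAX repressors, is common in promoters of germline genes. Ct55 was chosen with its values known. Each line gives the 250 bases before a RefSeq start, 5′ to 3′ on the gene's strand, in GRCm38.p6, with CACGTG in capitals where a match was found: Asz1 at chr6:18109062-18109311 on the minus strand, Rpl10l at chr12:66284402-66284651 on the minus strand, Slc25a31 at chr3:40708621-40708870 on the plus strand, Tex14 at chr11:87404815-87405064 on the plus strand, and Ct55 at chrX:53724581-53724830 on the plus strand.
Asz1: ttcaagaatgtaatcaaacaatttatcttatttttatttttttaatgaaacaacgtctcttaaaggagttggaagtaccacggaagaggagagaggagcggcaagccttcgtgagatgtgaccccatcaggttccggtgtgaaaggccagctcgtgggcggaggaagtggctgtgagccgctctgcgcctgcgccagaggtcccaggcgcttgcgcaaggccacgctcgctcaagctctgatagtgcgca
Rpl10l: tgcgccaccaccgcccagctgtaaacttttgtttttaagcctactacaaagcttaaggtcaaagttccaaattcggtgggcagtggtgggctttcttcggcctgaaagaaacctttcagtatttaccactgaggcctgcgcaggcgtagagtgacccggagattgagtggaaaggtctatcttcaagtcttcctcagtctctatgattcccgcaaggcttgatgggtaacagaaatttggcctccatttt
Slc25a31: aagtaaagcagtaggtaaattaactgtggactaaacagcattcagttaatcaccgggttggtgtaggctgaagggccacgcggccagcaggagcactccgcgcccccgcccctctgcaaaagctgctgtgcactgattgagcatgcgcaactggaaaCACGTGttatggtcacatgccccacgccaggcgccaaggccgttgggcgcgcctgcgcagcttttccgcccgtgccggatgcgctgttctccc
Tex14: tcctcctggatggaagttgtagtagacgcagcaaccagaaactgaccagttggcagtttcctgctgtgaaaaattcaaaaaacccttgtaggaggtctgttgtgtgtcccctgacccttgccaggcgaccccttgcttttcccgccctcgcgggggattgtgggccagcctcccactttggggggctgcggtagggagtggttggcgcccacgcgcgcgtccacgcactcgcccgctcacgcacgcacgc
Ct55: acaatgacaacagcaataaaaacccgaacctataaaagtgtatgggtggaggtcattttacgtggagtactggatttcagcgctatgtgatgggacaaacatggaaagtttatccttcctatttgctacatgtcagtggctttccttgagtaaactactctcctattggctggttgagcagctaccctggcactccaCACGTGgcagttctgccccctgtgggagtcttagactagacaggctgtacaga
The E-box starts 53 bases before the start in Ct55 and 93 bases before it in Slc25a31, and these letters are not in the windows of Asz1, Rpl10l and Tex14. In windows of 250 bases before to 50 after a start, searched on both strands, CACGTG was found for 2 of the 15 genes lowered as labelled (13.3%). It was found for 5 of 45 genes lowered with replicate 1 alone (11.1% of those with a window), and for 1483 of 15614 genes tested that have a window (9.5%). The whole germline list held it in 11 of 21 windows (52.4%), and 1 of its 4 lowered members with a window. The longer TCACGTG, whose matches are a subset of these, was in 1 of the 15 windows (6.67%) against 5.35% of all.

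The other genes lowered as labelled had varied roles. Ddr2, a collagen receptor tyrosine kinase, read 9.22 and 9.49 in scrambled ESC and 7.87 and 7.51 in KD2 (log2 -1.67, SE 0.20, limma adjusted p = 0.0357). Cc2d2a, a protein of the ciliary transition zone, read 8.73 and 8.47 against 7.28 and 6.74 (log2 -1.58, SE 0.20, limma adjusted p = 0.0407). Bod1l, which protects stalled replication forks, read 9.17 and 9.07 against 7.97 and 7.79 (log2 -1.24, SE 0.15, limma adjusted p = 0.0357). For all 3 the KD2 and scrambled arrays did not overlap, as the naming rule required. For these 3 genes KD1, between 7.35 and 7.91, also lay below every scrambled ESC array. The remaining called genes, dim or outside the naming rule and named after their values were seen, were Ccdc152 (-2.61), Nlrp4c (-1.95), Ccdc172 (-1.30) and Magea5 (-0.94) among the lowered, and Tfec (1.22) and Ptprz1 (1.05) as the raised. The raised pair stayed under 7.22 in every ESC array.

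The call rests on the pooled spread. A replicate block within each state, which compares arrays of the same number, left 2 of the 17 calls, Kdm5d and Ct55 (limma adjusted p = 0.0441 for each), and lost Asz1, Dnajc5g and Efhc2 (limma adjusted p = 0.0619 each), and Rhox13, Rhox1, Tcp11x2, Ddr2, Cc2d2a and Bod1l (0.0731 to 0.0976). Left out singly, ESC KD2 replicate 2 or ESC Scrambled replicate 2 gave 3 calls, ESC KD2 replicate 1 gave 8, any KD1 or RA Scrambled array gave 5, and either RA KD2 array gave 57; Kdm5d and Ct55 remained called in 19 of 21 alternative fits each and lost their call where only ESC arrays or only these groups set the spread.

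With KD2 replicate 1 alone, some genes of primitive endoderm (Cubn, Dab2, Gata6), simple epithelium (Krt8, Krt18) and smooth muscle (Tagln, Tpm1) rose, and some germline, X-linked and Y-linked genes fell, among them Asz1, Efhc2, Ct55, Kdm5d and Zfy1. Limma called 143 genes higher and 54 lower, 0.988% of the 19938, with 2359 genes at an unadjusted p below 0.05. The 17 genes called as labelled were all among them; both fits use the same scrambled arrays and KD2 replicate 1. A difference of at least 1 log2 unit was reached by 98 of the raised and 34 of the lowered genes. For scale, KD2 replicate 1 lay below both scrambled ESC arrays for 32.2% of all genes and above both for 35.2%, and both arrays labelled KD2 lay below both for 21.3% and above both for 18.8%. KD2 is 1 array here and is taken to have the spread of the remaining groups. Centring arrays on their medians turned the split from 143 and 54 to 122 and 74, so 72.6% of calls were higher as deposited and 62.2% after centring.

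**Figure D3:**
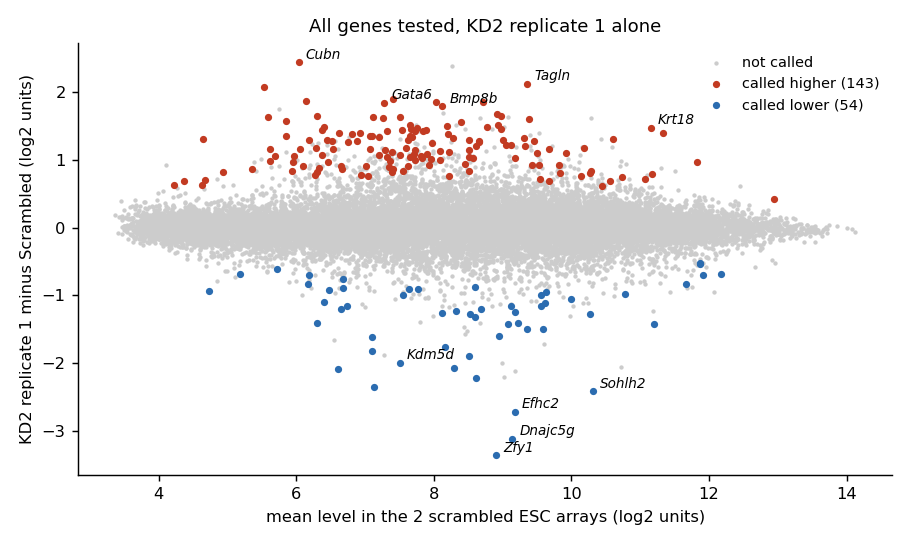
Difference of ESC KD2 replicate 1 from the mean of the scrambled ESC arrays (log2 units) against the mean scrambled level (log2 units), for 19938 genes. Red points are the 143 genes called higher, blue points the 54 called lower, and grey points are not called. Cubn is marked at 2.44 and Zfy1 at -3.36.

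Endoderm genes with the largest rises encode endocytic proteins and a transcription factor. Cubn, the cubilin receptor that visceral endoderm uses to take up maternal proteins, read 6.14 and 5.93 log2 units in scrambled ESC, 7.12 and 6.98 in KD1, and 8.48 in KD2 replicate 1. The array labelled ESC KD2 replicate 2 read 10.85 and scrambled RA arrays 8.15 and 8.30, so KD2 replicate 1 was above the scrambled range of both states. Cubn rose by 2.44 (SE 0.16, limma adjusted p = 0.000734), or 5.44-fold. Dab2, the adaptor that carries such receptors into the cell, read 8.08 and 7.98 in scrambled ESC, 9.88 in KD2 replicate 1 and 12.08 and 11.96 in scrambled RA (log2 1.85, SE 0.13, limma adjusted p = 0.000734). Gata6, a transcription factor that specifies primitive endoderm, read 7.20 and 7.36 in scrambled ESC, 8.11 and 8.12 in KD1, 9.13 in KD2 replicate 1 and 11.999 and 11.90 in scrambled RA (log2 1.85, SE 0.13, limma adjusted p = 0.000734). As labelled, none of these 3 was called (Cubn 3.63, SE 0.83, limma adjusted p = 0.269; Dab2 adjusted p = 0.284; Gata6 adjusted p = 0.368), and the arrays labelled ESC KD2 lay far apart for each.

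RefSeq promoters of Dab2 and Cubn are printed because GATA factors bind GATA motifs and both genes were raised in the same array as Gata6. Each line gives the 250 bases before a start in GRCm38.p6, 5′ to 3′ on the gene's strand, with GATAA in capitals where a match was found: Dab2 at chr15:6299539-6299788 on the plus strand, the start of 2 whose window holds the motif, and Cubn at chr2:13491877-13492126 on the minus strand.
Dab2: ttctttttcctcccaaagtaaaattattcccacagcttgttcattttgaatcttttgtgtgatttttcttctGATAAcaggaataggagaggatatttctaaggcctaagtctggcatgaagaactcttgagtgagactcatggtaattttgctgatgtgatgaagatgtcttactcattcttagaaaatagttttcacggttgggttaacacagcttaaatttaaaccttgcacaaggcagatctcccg
Cubn: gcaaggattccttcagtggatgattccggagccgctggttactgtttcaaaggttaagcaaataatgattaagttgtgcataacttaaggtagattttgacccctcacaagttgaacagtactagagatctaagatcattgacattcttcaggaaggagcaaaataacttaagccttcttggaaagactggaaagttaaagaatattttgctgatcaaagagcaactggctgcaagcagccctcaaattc
The motif starts 178 bases before this start of Dab2, and these letters are not in the window of Cubn or in that of the other start of Dab2. On either strand GATAA was in the windows of 28 of 104 raised genes (26.9%), 15 of 45 lowered genes (33.3%) and 3817 of 15614 genes tested (24.4%), so the raised genes were near the share of all genes.

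The endoderm lists as wholes moved less than these genes. For these and the lists below, the shares of all genes called in this fit are those given with the germline list. Of 13 endoderm transcription factors 2 rose, Gata6 and Foxq1 (0.87, SE 0.16, limma adjusted p = 0.0476), and 0 fell, with a median of 0.34. Gata4 stood at 0.50 (SE 0.17, limma adjusted p = 0.271), Sox17 at 0.19 and Foxa2 at 0.03. Of 19 visceral endoderm genes 2 rose, Cubn and Dab2, with a median of 0.12; the secreted proteins Ttr (0.02) and Afp (-0.05) were not called. Among 20 parietal endoderm and basement membrane genes 3 rose: Plat, tissue plasminogen activator (1.17, SE 0.16), Serpinh1, the collagen chaperone (1.04, SE 0.17), and Fst, the activin antagonist follistatin (1.02, SE 0.18). Their median was 0.36, and the laminin gene Lama1 stood at 0.36 (SE 0.13, limma adjusted p = 0.311). Gata6, Foxq1, Dab2, Plat, Serpinh1 and Fst read higher in both scrambled RA arrays than in KD2 replicate 1. As labelled the 3 lists had medians of 0.77, 0.37 and 0.86 and 0 members called.

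The keratins Krt8 and Krt18 of simple epithelium rose. Krt18 read 10.89 and 11.42 in scrambled ESC, 10.91 and 10.73 in KD1, 12.63 in KD2 replicate 1 and 13.07 for the replicate 2 array labelled ESC KD2 (replicate 1 alone: log2 1.47, SE 0.18, limma adjusted p = 0.00958). Its partner Krt8 read 11.15 and 11.50 in scrambled ESC and 12.73 in KD2 replicate 1 (log2 1.40, SE 0.16, limma adjusted p = 0.008). KD1 stayed in or near the scrambled range for both. Krt7 (1.28, SE 0.26, limma adjusted p = 0.0678) and Krt19 (0.92, SE 0.25, limma adjusted p = 0.17), other simple keratins named after their values were seen, were not called. Of 22 epithelial genes 3 rose, these and Perp, a desmosome protein (1.10, SE 0.17, limma adjusted p = 0.0247), while Cdh1, the E-cadherin gene named after its value was seen, stood at -0.01. The keratins also belong to the trophoblast list, where 4 of 21 rose and 0 fell. That list had the highest median of all lists with replicate 1 alone, 0.62. There 19 of 21 members stood above 0, against 10275 of 19938 genes tested. Its median in KD1 was 0.05. For RA minus ESC in scrambled cells its median was 0.80, against -0.04 over all genes. The others that rose were Bmp8b and the imprinted gene Peg10 (0.42, SE 0.05, limma adjusted p = 0.00915). The trophoblast markers Cdx2 (0.80, SE 0.17, limma adjusted p = 0.0732), Hand1 (0.93, SE 0.20, limma adjusted p = 0.0811) and Elf5 (-0.09) were not called.

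Bmp8b, a ligand of the BMP family active in extraembryonic ectoderm and germ cells, was no higher in differentiated scrambled cells. It read 8.01 and 8.23 in scrambled ESC, 8.28 and 7.9998 in KD1, 7.85 and 8.01 in scrambled RA, and 9.92 in KD2 replicate 1. The other KD2 arrays read 8.74 (labelled ESC), 9.08 and 9.12 (labelled RA), so every KD2 array lay above every scrambled array. The rise with replicate 1 alone was 1.80 (SE 0.18, limma adjusted p = 0.00677); as labelled it stood at 1.21 (SE 0.32, limma adjusted p = 0.341). Of 24 BMP genes 2 rose, Bmp8b and Bmp2 (1.16, SE 0.19, limma adjusted p = 0.0327), while Id1 (0.45) and Id3 (0.67), standard targets of the pathway named after their values were seen, were not called. Sp5, a direct Wnt target, read 7.66 and 7.72 in scrambled ESC, 9.03 in KD2 replicate 1 and 7.84 and 7.83 in scrambled RA, and was 1 of 21 Wnt genes to rise (1.34, SE 0.16, limma adjusted p = 0.00958). The array labelled RA KD2 replicate 2 also read Sp5 high, at 8.84, while the other KD2 arrays read 8.07 and 7.77.

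Smooth muscle and mesenchymal genes rose in part. Tagln, an actin-binding protein of smooth muscle, read 9.32 and 9.39 in scrambled ESC, 9.52 and 9.13 in KD1, 11.48 in KD2 replicate 1 and 12.51 and 11.95 in scrambled RA (log2 2.13, SE 0.23, limma adjusted p = 0.00745). Of 23 fibroblast and smooth muscle genes 2 rose, Tagln and Tpm1 (0.79, SE 0.14, limma adjusted p = 0.0373), with a median of 0.25, and Col1a2 (0.02) and Col3a1 (0.07), markers of feeder fibroblasts, were not called. Of 21 mesenchymal genes 2 rose: Tgfb2, a TGF-beta ligand (1.64, SE 0.20, limma adjusted p = 0.00958), and the repressor Zeb2 (0.91, SE 0.17, limma adjusted p = 0.0472). Tgfb2 read 9.15 in KD2 replicate 1 against 11.89 and 11.82 in scrambled RA, and Zeb2 read 7.01 against 9.40 and 9.43.

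Other genes among the 12 largest rises had roles in signalling and transport. Hs6st2, a heparan sulfate sulfotransferase, read 5.79 and 5.26 in scrambled ESC and 7.61 in KD2 replicate 1 (log2 2.09, SE 0.24, limma adjusted p = 0.008). Slc25a24, a mitochondrial carrier of ATP-Mg and phosphate, read 7.42 and 7.38 against 9.30 (1.90, SE 0.22). Cntfr, a receptor subunit of the LIF family and the 1 gene of 18 in the LIF and STAT3 list to rise, read 8.93 and 8.48 against 10.57 (1.86, SE 0.30, limma adjusted p = 0.0281), but KD1 also read 10.39 and 9.53. The rest were Glipr1 (1.88), Anxa3 (1.68), Parp8 (1.65) and Prtg (1.65), with limma adjusted p from 0.00779 to 0.0263. All 7 read higher in both scrambled RA arrays than in KD2 replicate 1.

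**Figure D4:**
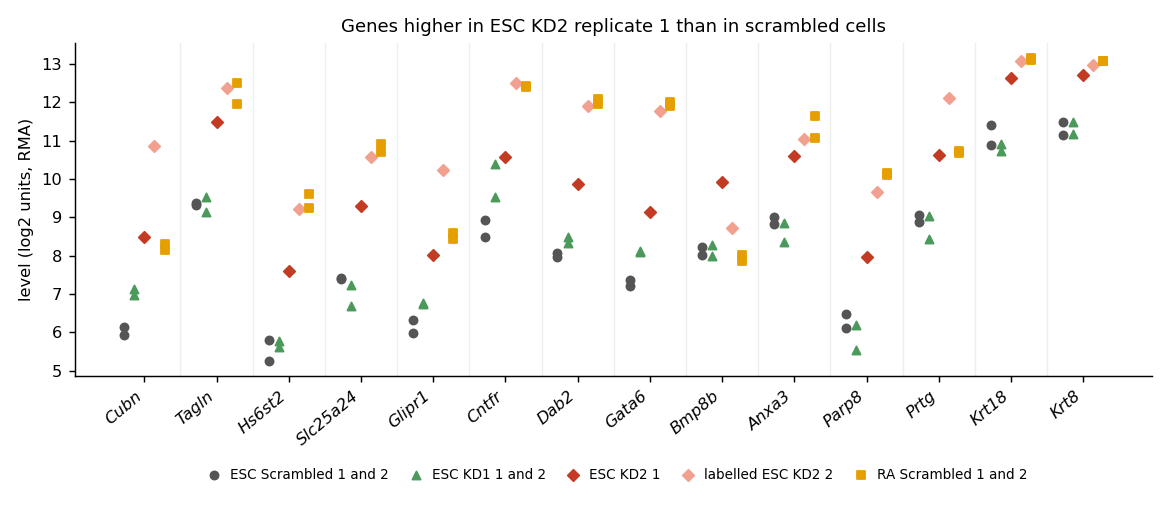
Levels (log2 units, RMA) of the 12 genes with the largest rises in ESC KD2 replicate 1, and of Krt18 and Krt8, in single arrays marked as in the plot of lowered genes. Red diamonds lie above both grey circles for every gene, which the naming rule required for the 12 genes. Bmp8b is the gene whose orange squares (scrambled RA, 7.85 and 8.01) are not above the grey circles.

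Genes lowered with replicate 1 alone beyond those called as labelled included Sohlh2, a transcription factor of spermatogonia and oocytes. It read 10.03 and 10.60 in scrambled ESC, 10.12 and 10.41 in KD1, and 7.90 in KD2 replicate 1 (log2 -2.41, SE 0.25, limma adjusted p = 0.00745), to 18.8% of scrambled. The other KD2 arrays read 9.63, 9.60 and 9.19, higher than replicate 1 but below every scrambled array. Serpinb6c, a serine protease inhibitor gene, read 8.88 and 9.02 in scrambled ESC, 9.07 and 9.83 in KD1, and 7.35 in KD2 replicate 1 (log2 -1.61, SE 0.26, limma adjusted p = 0.0293). Aga, a lysosomal amidase, read 8.77 and 9.38 against 7.64 (log2 -1.43, SE 0.26, limma adjusted p = 0.0443). Among 25 imprinted genes 1 fell, Grb10, an adaptor that restrains insulin and growth factor signalling, which read 9.74 and 9.38 in scrambled ESC, 7.95 and 7.71 in KD1 and 8.40 in KD2 replicate 1 (log2 -1.16, SE 0.20, limma adjusted p = 0.0337). In the same list 3 genes rose: Nnat (1.32, SE 0.13), Peg3 (1.18, SE 0.11) and Peg10, and all were higher still in scrambled RA.

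Naive pluripotency genes were not called. Of 28 naive genes 0 were called by limma with replicate 1 alone, in a fit where 2359 of all genes had an unadjusted p below 0.05, and the median was -0.18. Tcl1, a coactivator of AKT and the most changed member, read 11.11 and 11.47 in scrambled ESC and 10.61 in KD2 replicate 1 (log2 -0.67, SE 0.32, limma adjusted p = 0.466). Pou5f1 read 12.86 and 12.65 against 12.77, and Nanog 12.67 and 12.81 against 12.41. KD2 replicate 1 lay below both scrambled ESC arrays for 16 of the 28 naive genes, against 32.2% of all genes. It lay above both for 4, against 35.2% of all genes. As labelled the naive median was -1.11, also with 0 members called and 2057 genes at an unadjusted p below 0.05; the array labelled ESC KD2 replicate 2 read Pou5f1 at 10.42 and Nanog at 11.14. Of 27 retinoic acid response genes 1 rose with replicate 1 alone, Rdh10, a retinol dehydrogenase (1.21, SE 0.17, limma adjusted p = 0.0164), and the median was 0.25. The induced receptor gene Rarb, named after its values were seen, read 6.10 and 6.28 in scrambled ESC, 6.39 in KD2 replicate 1, 11.28 for the replicate 2 array labelled ESC KD2, and 11.52 and 11.59 in scrambled RA. Rarb was thus near the scrambled ESC level in KD2 replicate 1 and near the scrambled RA level in the array labelled replicate 2.

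Genes of PP2A and of histone chaperones were not called in either fit. In the list of PP2A subunits and regulators, which does not hold Set itself, 0 of 22 members were called, with a median of 0.05 as labelled and 0.04 with replicate 1 alone. In the list of histone chaperones and SET-complex proteins 0 of 28 were called, with medians of -0.02 and 0.04. In the same fit of replicate 1 alone 0 members were called of 37 Hox genes (median -0.06), 29 S phase genes (-0.01), 29 mitosis genes (0.01), 28 ribosome biogenesis genes (0.12), 26 hypoxia and glycolysis genes (-0.08), 25 Polycomb subunits (0.02), 19 DNA methylation genes (0.07), 24 interferon genes (0.09) or 23 mesoderm genes (0.11). The formative, 2-cell-stage, cholesterol, ATF4 response and histone lists also had 0 called, with medians from -0.48 to 0.27. Single members rose in the neural (Sox11, 0.84), FGF (Klb, 0.78) and p53 (Perp) lists. The median SE per gene was 0.15, and differences of several SE could go uncalled in this fit, as that of Krt7 did. A lack of calls therefore does not exclude moderate shifts of single genes.

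**Figure D5:**
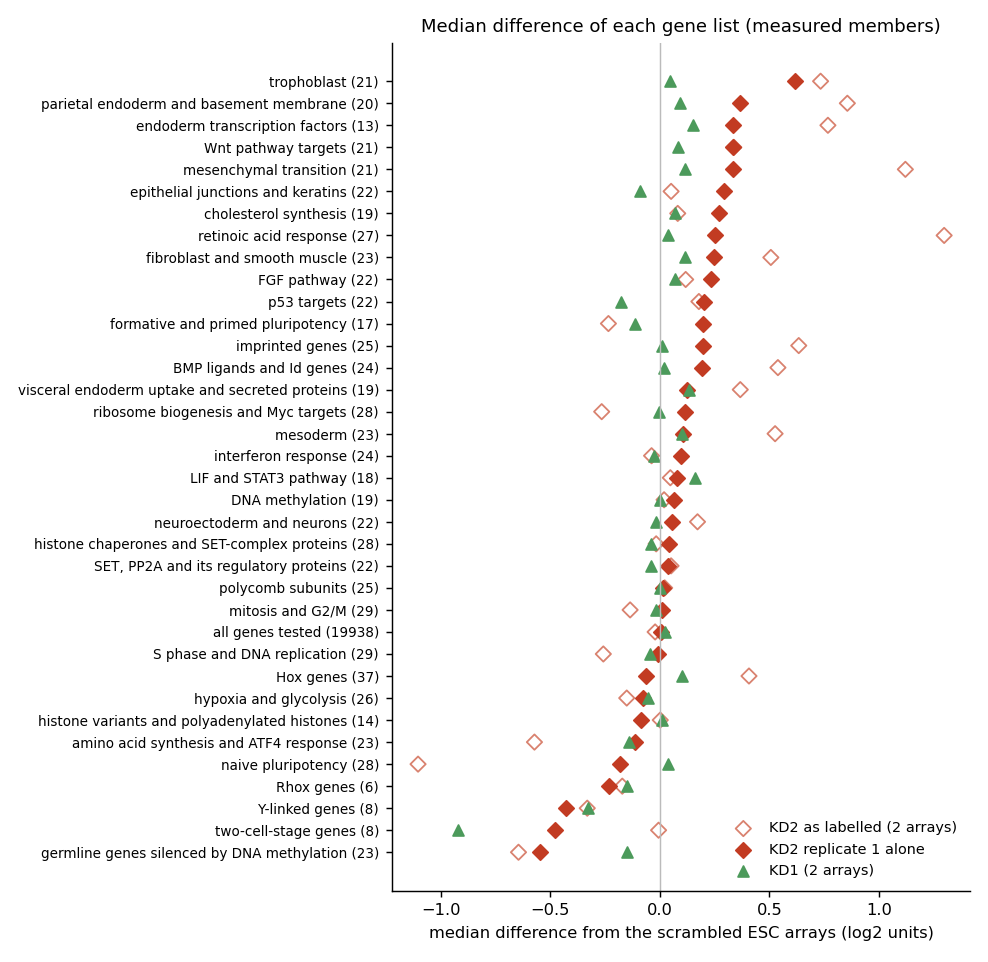
Median difference from scrambled ESC (log2 units) of each gene list, with the number of measured members in brackets, for KD2 as labelled (open diamonds), KD2 replicate 1 alone (red diamonds) and KD1 (green triangles). Trophoblast (0.62) is highest and germline (-0.55) lowest with replicate 1 alone, while naive pluripotency is at -1.11 only as labelled.

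The counts with replicate 1 alone depend on which arrays set the spread. A replicate block within each state raised them to 645 higher and 195 lower, and each of the 24 genes named for this fit remained called. Without ESC Scrambled replicate 1 there were 427 calls and all 24 remained; without RA KD1 replicate 1, or replicate 2, there were 55, and Aga, Anxa3, Cntfr, Parp8, Prtg, Rhox1, Rhox13, Serpinb6c and Tcp11x2 were not called, nor were Bmp2, Bod1l, Foxq1, Fst, Grb10, Klb, Perp, Plat, Rdh10, Serpinh1, Slc25a31, Sox11, Tex11, Tex14, Tpm1 and Zeb2. Without ESC Scrambled replicate 2, or either RA Scrambled array, Aga, Cntfr, Parp8, Serpinb6c, Foxq1, Klb, Slc25a31 and Zeb2 lost their calls. Tpm1 did so without ESC Scrambled replicate 2, and Bmp2, Fst, Grb10, Serpinh1, Sox11 and Tex11 without either RA Scrambled array. Foxq1 and Klb were also lost without ESC Scrambled replicate 1, and Klb, Slc25a31 and Zeb2 without either ESC KD1 array. With only ESC arrays setting the spread there were 5 calls, and of the 24 only Cubn, Dnajc5g, Efhc2 and Kdm5d were called; with only KD2 and scrambled ESC there were 13.

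The difference between the knockdown lines was tested as KD2 minus KD1 in ESC. As labelled 11 genes were higher (0.0552% of genes tested) and 15 lower (0.0752%) in KD2, 0.13% in all. With KD2 replicate 1 alone 332 were higher (1.67%) and 105 lower (0.527%), 2.19% in all. Of the 26 genes named above for KD2 against scrambled, 15 differed between the lines with replicate 1 alone: Cubn, Tagln, Hs6st2, Slc25a24, Glipr1, Dab2, Gata6, Bmp8b, Anxa3, Parp8 and Prtg were higher in KD2, and Dnajc5g, Rhox13, Sohlh2 and Serpinb6c lower. The calls of Dnajc5g and Rhox13 were lost on leaving out any 1 KD1 array, that of Glipr1 without either ESC KD1 array, and that of Rhox13 also without either RA Scrambled array or without the intensity trend. The call of Dab2 was lost when a gene's probe sets were averaged. Serpinb6c was the 1 of them that was also called as labelled. Most of the 26 were named by their values in KD2 replicate 1, the array used again here, so an overlap was partly built in. Krt18 (1.80, SE 0.18, limma adjusted p = 0.00531) and Krt8 (1.39, limma adjusted p = 0.00602) were higher in KD2 as well. The largest rise by the naming rule was in Acta2, smooth muscle actin, which read 9.50 and 8.48 in KD1, 10.56 and 10.01 in scrambled ESC and 11.90 in KD2 replicate 1 (log2 2.90, limma adjusted p = 0.00711). Slc25a24 (2.34), N-cadherin, Cdh2 (2.23), Nrk, a kinase (2.16), Tagln (2.15) and Fndc3c1 (2.12) were the others named. Downward, Igsf21, a synaptic adhesion gene, read 10.75 and 10.78 in KD1 against 8.79 in KD2 replicate 1 and 8.51 and 8.71 in scrambled ESC (log2 -1.97, limma adjusted p = 0.00531). The calcium pump Atp2a3 (-1.94), Tgfbi (-1.74) and D1Pas1 (-1.67) were lower too; for Igsf21 and Atp2a3, KD2 replicate 1 stood near scrambled and KD1 stood apart.

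Among germline list members lowered in KD2, Rpl10l (-0.96, limma adjusted p = 0.0189) and Tex11 (-0.80, limma adjusted p = 0.0292) were lower in KD2 than in KD1 with replicate 1 alone. Both calls were lost without either ESC KD1 array, and that of Tex11 also without any RA KD1 or RA Scrambled array. A difference between the lines was not called for Kdm5d, Ct55, Asz1 or Zfy1. Kdm5d differed by -0.18 between KD2 and KD1 (SE 0.14, limma adjusted p = 0.563), Ct55 by -0.12 (limma adjusted p = 0.677), Asz1 by 0.08 (limma adjusted p = 0.853) and Zfy1 by 0.23 (limma adjusted p = 0.773) with replicate 1 alone. KD1 against scrambled gave -1.81 for Kdm5d, -1.64 for Ct55, -1.69 for Asz1 and -3.59 for Zfy1, beside -1.99, -1.76, -1.61 and -3.36 for KD2. Both comparisons share the scrambled arrays.

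As labelled, genes higher in KD2 than in KD1 were led by Ghr, the growth hormone receptor (2.07, limma adjusted p = 0.0473), Krt18 (2.03), the matrix protein Thbs1 (1.84), the iron exporter Slc40a1 (1.64), Sema3e (1.45) and Emb (1.39). Lower in KD2 were Serpinb6c (-2.35), Atp2a3 (-2.14), the citrate transporter Slc13a5 (-2.04), Lrch1 (-1.57), Spata31d1a (-1.54) and Zc3h13 (-1.35), each with a limma adjusted p of 0.0473 or 0.0495. Slc40a1 read 7.59 and 7.91 in scrambled ESC, 7.77 and 7.43 in KD1, and 9.22 and 9.26 in the arrays labelled ESC KD2. Centring left 1 higher and 4 lower of the 11 and 15. With the replicate block 0 genes were called by limma (4229 at an unadjusted p below 0.05). Leaving out any 1 ESC array, RA Scrambled array or RA KD1 array also gave 0 (1539 to 6251 at an unadjusted p below 0.05), while leaving out either RA KD2 array gave 202. The block gave 1194 and 391 with replicate 1 alone. Without ESC KD1 replicate 2 there were 124 calls, and Cdh2, Nrk and Fndc3c1 were lost; without ESC KD1 replicate 1 there were 281, without RA KD1 replicate 1 or 2 193, and without ESC Scrambled replicate 1 or 2 746 and 743. With only ESC arrays 0 were called by limma (2322 at an unadjusted p below 0.05). Centring gave 273 and 145.

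The mean of all 4 KD2 arrays minus the mean of all 4 scrambled arrays stays the same if the displaced KD2 arrays change places, although its error as labelled does not. By this average over states 28 genes fell (0.14% of genes tested) and 5 rose (0.0251%) as labelled, 0.166% in all. Kdm5d fell by 1.90 (limma adjusted p = 7.83e-05), Efhc2 by 2.21 (limma adjusted p = 0.00519), Rhox13 by 1.57 (limma adjusted p = 0.0191) and Cc2d2a by 1.52 (limma adjusted p = 0.00707). Grb10 read 8.40 and 8.81 in the arrays labelled ESC KD2 and 9.01 and 8.10 in those labelled RA KD2, against 9.74, 9.38, 11.52 and 11.59 in scrambled cells, and fell by 1.98 (limma adjusted p = 0.015). Nxf3, an X-linked gene of the mRNA export factor family, fell by 1.46 (limma adjusted p = 0.0371). The 5 raised genes were Sema3e, Tfec, Ptprz1, Rnpep and Lrpap1. Sema3e, a secreted guidance cue, read 8.97 and 9.15 in ESC KD2 and 8.87 and 8.70 in RA KD2. Scrambled cells read 7.97, 7.94, 8.13 and 7.81, and the rise was 0.96 (limma adjusted p = 0.0333). The naming rule required that these arrays not overlap within a state. The aminopeptidase gene Rnpep rose by 0.55 (limma adjusted p = 0.0495) and Lrpap1, the chaperone of LDL receptor family members, by 0.48 (limma adjusted p = 0.0453).

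With 1 KD2 array per state the average gave 164 higher (0.823% of genes tested) and 132 lower (0.662%), 1.48% in all. Cubn rose by 2.44 (limma adjusted p = 0.000125), Srgn, a proteoglycan core protein, by 2.37 (limma adjusted p = 0.012), Glipr1 by 1.61, Prtg by 1.48, Bmp8b by 1.47 (limma adjusted p = 0.0021) and Flt1, a VEGF receptor, by 1.38. Srgn was not called in ESC alone (2.39, SE 0.45, limma adjusted p = 0.0506), where its scrambled arrays read 7.75 and 8.78. In this average Dab2 (0.79) and Gata6 (0.80) were smaller than in ESC, and scrambled RA cells read from 11.90 upwards for both. The replicate block gave 18 calls as labelled, without Rnpep and Lrpap1 among the named genes, and 1317 with replicate 1 alone. As labelled, single arrays left out gave 6 (ESC Scrambled replicate 2) to 20 calls (ESC KD2 replicate 2), and Rnpep, Lrpap1 and Sema3e were not called without any 1 of the 12 arrays, while Kdm5d and Efhc2 remained called without each. Nxf3 was called without RA Scrambled replicate 1 and lost its call without any other array. Grb10 lost its call without either RA KD1 array, either RA Scrambled array, either ESC Scrambled array, ESC KD1 replicate 2 or ESC KD2 replicate 1. Rhox13 lost it without either RA KD1 array, ESC KD2 replicate 1, ESC Scrambled replicate 2, RA KD2 replicate 1 or RA Scrambled replicate 2, and Cc2d2a without RA Scrambled replicate 2. Bod1l lost its call without either ESC Scrambled array, either RA KD1 array or ESC KD1 replicate 2. Counts with replicate 1 alone were 615 without ESC Scrambled replicate 1, 131 and 130 without RA KD1 replicates 1 and 2, and 179 and 131 without RA Scrambled replicates 1 and 2; centring turned 164 and 132 into 162 and 188.

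Some lowered genes were neighbours, a run chosen after its values were seen. Bod1l and Cc2d2a belong to a run of 20 genes on chromosome 5, from Rab28 to Med28 in RefSeq order, in which 12 read lower in both arrays labelled ESC KD2 than in both scrambled ESC arrays, against 21.3% of all genes. By the average over states 5 of the 20 fell as labelled, against 0.14% of all genes: Rab28 (-0.83), Bod1l (-1.02), Cc2d2a (-1.52), Fbxl5 (-0.80) and Med28 (-0.76). The run was drawn to span these same 5 genes, so neither this count nor the 12 above tests it. With 1 KD2 array per state Qdpr (-0.74) and Lap3 (-0.56) fell as well, which makes 7. KD1 in ESC, which shares the scrambled arrays, gave -0.70 for Rab28, -1.21 for Bod1l, -1.05 for Cc2d2a, -1.10 for Fbxl5 and -0.89 for Med28. Over whole chromosomes, chromosome 8 had the lowest median difference among autosomes, -0.07 in KD2 replicate 1 and -0.12 for the replicate 2 array labelled ESC KD2, beside -0.08 and -0.09 in the KD1 arrays. Other autosomes lay between -0.03 and 0.03 in KD2 replicate 1 over all their genes. Among genes at or above the median of all values, chromosome 8 stood at -0.10 and -0.13 in these KD2 arrays. KD1 arrays stood at -0.20 and -0.21 there. Other autosomes then ran from -0.05 (chromosome 6) to 0.07 (chromosome 7) in KD2 replicate 1.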

How the data were processed

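The authors deposited log2 expression values of 35556 probe sets on 12 arrays, made with RMA per the submitters' processing notes (version not given in the sources used here); array medians were 7.17 to 7.24. Probe sets with 1 gene symbol in the platform annotation (21789 of 23410 annotated; 1621 with several were used for Set alone) gave 19938 genes. limma 3.58.1 in R 4.3.3, with an intensity trend and Benjamini-Hochberg adjustment over these genes, called genes at an adjusted p below 0.05. It was tested on simulated data that held no displaced arrays and no replicate effect, so that test does not cover the calls as labelled. Depth does not apply to arrays, whose number limits the precision. Replicate numbers were taken as pairs within a state for the block because replicate differences correlated between all groups (0.141 to 0.633, against 0.1 required). The KD2 differences involve the displaced arrays, so their correlations do not measure pairing alone. Between Scrambled and KD1 the correlation was 0.633 in ESC and 0.15 in RA. The fit without the block is the one reported, so its p-values leave out this pairing although the required correlation was reached. Named were the 12 largest non-overlapping calls each way against scrambled (6 in other comparisons) whose higher mean reached the median of all values, 7.22, predicted genes, RNA-class names and olfactory and vomeronasal receptors left out, and up to 4 called members, or the most changed member, of each of 35 lists. The comparison and lists were chosen with earlier results of these data known. Listed names were matched by symbol or synonym. The imprinted list thereby counts Nckap1 in place of H19, and the hypoxia and glycolysis list counts Pigq in place of Gpi1, which are different genes. Promoters are RefSeq's (GRCm38.p6), matched by symbol for 15614 genes. The build behind the deposited table is not given in the sources used here. Other scalings, filters, spreads, array omissions and the replicate block were tried.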

Additional observations from a re-analysis of the deposited data

Results flagged for a closer look

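Of the 26 genes named for KD2 against scrambled ESC, 15 were called different between the knockdown lines by KD2 minus KD1 with replicate 1 alone (limma over all genes); 1, Serpinb6c, was also called as labelled. Higher in KD2 were Slc25a24 by 2.34 on the log2 scale, Tagln by 2.15, Parp8 by 2.08, Anxa3 by 1.99, Hs6st2 by 1.92, Prtg by 1.89, Bmp8b by 1.78, Dab2 by 1.47, Cubn by 1.43, Glipr1 by 1.26 and Gata6 by 1.01. The differences of Sohlh2 (-2.37), Serpinb6c (-2.10), Rhox13 (-1.40) and Dnajc5g (-0.97) ran the other way. Most of the 26 were named by their values in the same KD2 array, so this overlap was partly built in. The limma adjusted p-values lay between 0.00531 and 0.0478. None of the 15 was called where only ESC arrays set the spread, and 1 KD2 array carries each value.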

How the results depend on the processing

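For KD2 against scrambled ESC as labelled, the 17 calls became 59 over all annotated probe sets, 9 without the intensity trend, 4 among genes at or above the median of all values, and 0 by limma with only the 2 groups (1076 at an unadjusted p below 0.05) or only ESC arrays (1880). Leaving out single arrays gave 3 to 57. With replicate 1 alone, the 197 calls became 13 with only the 2 groups and 5 with only ESC arrays, and 55 to 427 without single arrays. For KD2 minus KD1 as labelled, the 26 calls became 5 after centring, 5 after quantile normalization, and 0 by limma with only the 2 groups (1832 unadjusted) or only ESC arrays (2761), and 0 to 202 without single arrays. Its 437 calls with replicate 1 alone became 240 at a difference of at least 1, 0 with only ESC arrays (2322 unadjusted), and 124 to 746 without single arrays. For the average over states as labelled, the 33 became 16 at a difference of at least 1, 77 over all annotated probe sets, 15 at or above the median and 1 with only the 4 groups, and 6 to 20 without single arrays. The 296 with replicate 1 alone became 55 at a difference of at least 1, 33 with only the 4 groups, and 130 to 615 without single arrays. Fits on fewer arrays have fewer degrees of freedom; the cause of the other shifts was not tested. Centring moved the median of all genes as labelled from -0.02 to -0.13. Other counts stayed within 1.5 times.

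The replicate block, which pairs arrays of the same number within a state, gave 2 calls as labelled and 840 with replicate 1 alone, 0 and 1585 for KD2 minus KD1, and 18 and 1317 for the average. Set probe set 10470893 as labelled stood at -0.79 after quantile normalization and was then called (limma adjusted p = 0.0477).

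Signs of the difference from scrambled turned for some genes for which it was not called in any fit of that kind; ranges are over fits without single arrays. As labelled these were H2bc4 (-0.66 to 0.82, and -0.0261 after centring), Hoxc13 (-0.65 to 0.0276), Hoxc5 (-0.20 to 4.91), Igsf21 (-1.43 to 0.19), Phf19 (-1.31 to 0.55), Ppp2r2b (-0.0059 to 2.50), Sqle (-0.0113 to 0.49), Tdpoz3 (-1.15 to 0.34) and Tgfbi (-0.39 to 2.63). With replicate 1 alone they were Ppp2r2b (-0.0133 to 0.0014, and 0.0421 after quantile normalization), Slc7a3 (-0.40 to 0.0437), Spry4 (-0.77 to 0.029, and 0.0634 with the replicate block), Tdpoz3 (-1.41 to 0.074), Wdr12 (-0.19 to 0.16) and Set probe set 10470907 (-0.0215 after centring).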
